A study of Rattus norvegicus with 90 samples.

Results

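The transcripts described here are 150 of the 40071 transcripts in the deposited rat tables, chosen by their measured levels: hepatocytes and renal cells both held them and cardiomyocytes held little of them. A transcript was a candidate if its mean level stayed below 0.5 TPM (a read count corrected for transcript length and scaled to the library total) in each of the 6 cardiomyocyte conditions. The candidates were ranked by the lower of their 2 mean TPM values in vehicle cultures at 9 h, one in hepatocytes and one in renal cells. The 150 highest with a lower value of at least 1 TPM were kept. Of the 40071 transcripts, 19825 passed the cardiomyocyte limit, and 224 of these had a lower value of at least 1 TPM. The last transcript kept, ENSRNOT00000089127, had a lower value of 1.75 TPM, and the first one left out, ENSRNOT00000020640, had 1.73 TPM.

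The study exposed primary Sprague-Dawley rat hepatocytes and renal cells to thioacetamide-S-oxide, the reactive metabolite of the liver toxicant thioacetamide. It asked how far such cultures mirror injury in the animal. Hepatocytes received vehicle (maintenance medium), 0.025 mM (low dose) or 0.125 mM (high dose), and renal tube epithelial cells received vehicle, 0.125 mM (low dose) or 0.5 mM (high dose). Cardiomyocytes received vehicle, 0.5 mM (low dose) or 1.5 mM (high dose). The paper does not describe the cardiomyocytes, and their sample titles give no strain. Each was cultured for 9 or 24 h after dosing, which gave 18 conditions of 5 libraries each. The hepatocytes and renal cells were bought as cryopreserved primary cells. Whether the 5 libraries of a condition came from separate animals, lots or culture dishes is not given in the sources used here, so the p-values below measure the spread between these libraries, which may be technical.

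Hepatocytes and proximal tubule cells are both polarized epithelial cells. They share membrane transporters for organic anions and cations, enzymes that oxidize and conjugate foreign compounds, and the enzymes of gluconeogenesis, and the kidney and liver are the main organs that make glucose. Cardiomyocytes are contractile muscle cells that lack most of this equipment. Thioacetamide itself is inert until cytochrome P450 enzymes and flavin-containing monooxygenases oxidize it to the S-oxide and further to a species that binds proteins and lipids. The deposited tables name transcripts only by their Ensembl identifiers, and none of the tables used here pairs those identifiers with genes, so 0 of the 150 could be given a gene name or a sequence. The functions above are therefore background and were not assigned to any of the 150 transcripts.

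Apart from 1 library, the hepatocyte and renal libraries held between 10729341 and 37281804 estimated counts on transcripts, and the cardiomyocyte libraries held between 10519414 and 55822031. Among the hepatocyte vehicle cultures at 24 h, library MS-183 held 249303, which was 8.33% of its counts, and 94 of the 150 transcripts were listed at 0 in it. Among the low-dose renal cultures at 24 h, MS-145 held 14178701 transcript counts, against 29413606 to 30348650 in the other 4 libraries, and the median level of the 150 transcripts in it was 1.94 TPM, against 4.41 to 6.05 TPM. The main counts that rest on either library are also given without it. The hepatocyte vehicle libraries at 24 h carry the numbers MS-181 to MS-185 and the other hepatocyte libraries carry numbers from MS-91 to MS-120. No source used here says whether they were handled apart, and such a difference cannot be told apart from the 24 h vehicle condition.

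In the conditions that were not used to choose them, most but not all of the transcripts were again found in both cell types, and more fell short in hepatocytes than in renal cells. Without MS-183, 107 of the 150 transcripts had a mean of at least 1 TPM in all 12 hepatocyte and renal conditions. With MS-145 left out as well, all but 11 reached 1 TPM in each of the 5 renal conditions other than vehicle at 9 h, and all but 36 in each of the 5 corresponding hepatocyte conditions. In at least 1 of those conditions, 4 transcripts were below 0.5 TPM in renal cells and 15 in hepatocytes. In all 5, 2 were so in renal cells and 0 in hepatocytes. In cardiomyocytes the rule limits the means, not each library. Of the 150 transcripts, 3 were listed at 0 in all 30 cardiomyocyte libraries, while 71 exceeded 0.5 TPM in at least 1 library and 23 exceeded 1 TPM. The highest single value was 2.46 TPM, for ENSRNOT00000079343. Low-dose cardiomyocyte library MS-159 at 9 h held the highest cardiomyocyte value of 44 transcripts. The limit was also close for some transcripts, since 23 had a highest cardiomyocyte mean between 0.4 and 0.5 TPM and 43 stayed under 0.1 TPM.

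Summed over the 150 transcripts, the level was high in hepatocytes, lower in renal cells and near the floor in cardiomyocytes. Vehicle hepatocytes at 9 h held 7037 ± 268 TPM (SD, n = 5), vehicle renal cells at 9 h held 1762 ± 13.7 TPM, and the 6 cardiomyocyte conditions averaged between 14.5 and 21.9 TPM. These sums follow from the rule at 9 h. In hepatocytes the sum rests on few transcripts, because the 10 highest supplied 81.7% of it and the highest alone 26.5%, while in renal cells the 10 highest supplied 31.9%. The median transcript was nearly as abundant in both cell types, at 5.58 TPM in hepatocytes and 5.95 TPM in renal cells.

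**Figure D1:**
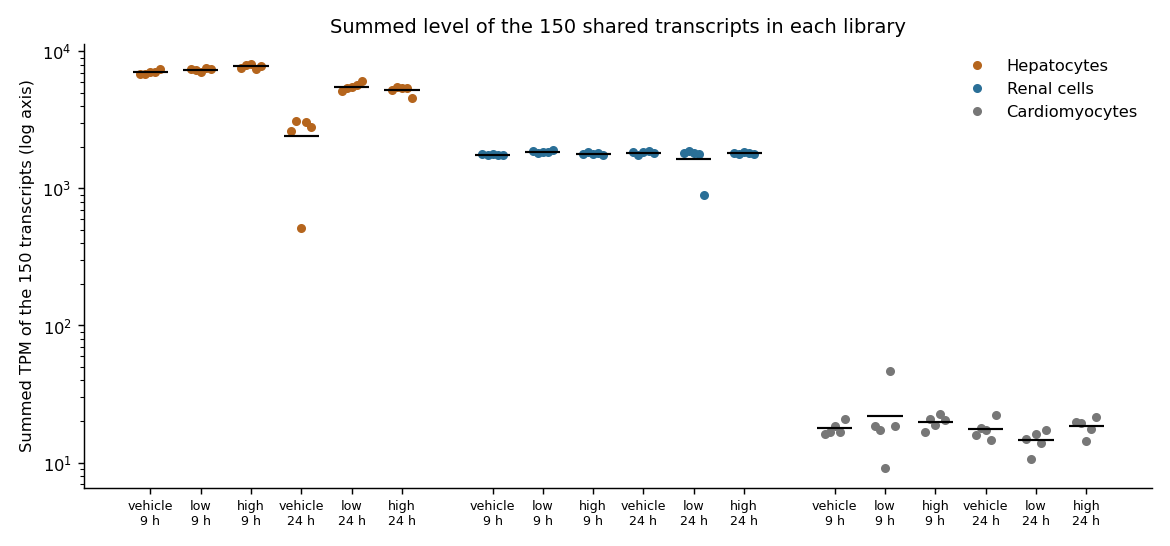
Summed TPM of the 150 transcripts in each of the 90 libraries, on a log axis, by cell type, dose and time, with 1 point per library and a bar at the mean of the 5 libraries. Hepatocyte vehicle cultures at 24 h lie below every other hepatocyte condition, with MS-183 at 514 TPM, and the renal conditions lie near 1800 TPM except for MS-145 at 899 TPM.

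The rule used the lower of the levels in the 2 cell types, and the values that follow describe the members it left and test nothing. In vehicle cultures at 9 h, hepatocytes were higher for 76 transcripts and renal cells for 74, with a median ratio of 1.02. The ratio was within 2-fold for 63 transcripts, above 2-fold in favour of hepatocytes for 40 and above 2-fold in favour of renal cells for 47. It exceeded 10-fold for 13 and 6 transcripts, respectively. Spearman's rho between the 2 levels was 0.05 across the 150 transcripts, a value that the ranking on the lower level bears on. The hepatocyte levels ran from 1.75 to 1864 TPM and the renal levels from 1.76 to 72.8 TPM.

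The 150 transcripts did not stand apart in length. Their median length was 2012 bases (87 to 9603), close to the median of 1956.5 bases of the 13608 transcripts with at least 1 TPM in both vehicle groups at 9 h. Of the 150, 48 (32%) had estimated counts that were exactly whole, as deposited, in every library, against 38.3% of those 13608. A count that is not whole was divided by Kallisto among transcripts with shared sequence, so the levels of the others can depend on that division. The median coefficient of variation over the members was 12% in hepatocytes and 9.02% in renal cells in vehicle cultures at 9 h. In vehicle cultures at 24 h it was 20.1% in hepatocytes without MS-183 and 13.3% in renal cells.

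**Figure D2:**
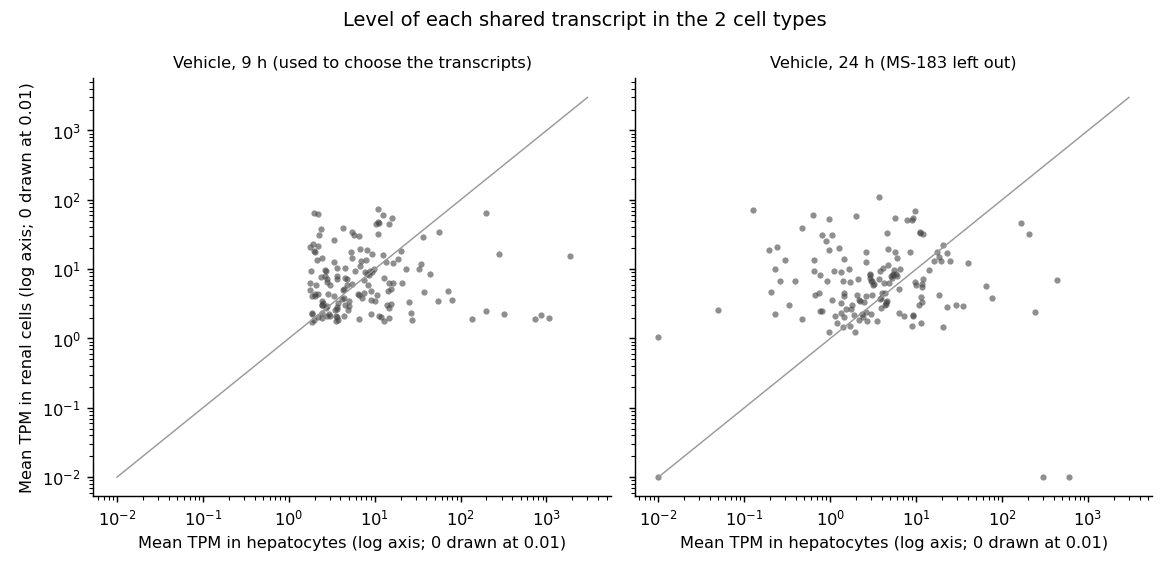
Mean TPM of each of the 150 transcripts in hepatocytes (horizontal) and renal cells (vertical), both on log axes, in vehicle cultures at 9 h on the left and at 24 h on the right, with the line of equal levels and MS-183 left out. The square corner at 9 h is made by the rule, and at 24 h many points lie further to the left, at lower hepatocyte levels.

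The transcript with the highest rank, ENSRNOT00000024725 (3192 bases), was abundant in both cell types. At 9 h in vehicle cultures it stood between 189 and 205 TPM in the 5 hepatocyte libraries and between 62.3 and 66.3 TPM in the 5 renal libraries. Its levels differed little within a group, and the groups did not overlap. At 24 h the renal level was 46.7 ± 1.38 TPM in vehicle and 87.7 ± 2.14 TPM at the high dose (log2 fold change 0.85, edgeR adjusted p = 1.11e-07). The second, ENSRNOT00000013257 (2041 bases), held 56.1 ± 5.26 TPM and 34.6 ± 0.802 TPM. The third, ENSRNOT00000026873 (3975 bases), held 36.1 ± 3.42 TPM and 29.1 ± 0.516 TPM, and the fourth, ENSRNOT00000014074 (897 bases), held 20.5 ± 1.71 TPM and 18.3 ± 1.24 TPM. The fifth, ENSRNOT00000025045 (2259 bases), was uneven, with 283 ± 16.8 TPM in hepatocytes and 16.5 ± 0.987 TPM in renal cells.

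The pair with the highest hepatocyte to renal ratio was hardly shared outside the libraries that chose it. ENSRNOT00000086805 (405 bases) stood at 861 ± 46.6 TPM in vehicle hepatocytes at 9 h and at 2.06, 2.23, 0.647, 4.54 and 1.33 TPM in vehicle renal cells. In the other 5 renal conditions it was listed at 0 in all libraries but 2, which held 0.468 and 0.149 TPM. ENSRNOT00000071798, only 87 bases long, stood at 1068 ± 223 TPM in hepatocytes and at 0, 5.19, 0, 4.52 and 0 TPM in renal cells, and was listed at 0 in every library of the other 5 renal conditions. Together the 5 renal vehicle libraries at 9 h gave these 2 transcripts 8, 11, 3, 25 and 6 counts, against 2492 to 5869 counts in the vehicle hepatocyte libraries at 9 h. The low renal signal of both was thus found in vehicle at 9 h and hardly elsewhere, and the source of those counts was not tested. At the other end, ENSRNOT00000050900 (537 bases) held 1.94 ± 0.669 TPM in hepatocytes and 64.2 ± 3.28 TPM in renal cells, and it kept between 1.59 and 4.05 TPM in the means of the other hepatocyte conditions. ENSRNOT00000010923 (3076 bases) held 2.19 ± 0.190 TPM and 62.8 ± 1.2 TPM. In hepatocyte vehicle cultures at 24 h it stood at 0.0928, 0.148, 0.173 and 0.0854 TPM in 4 libraries and at 6.52 TPM in MS-183, above all other hepatocyte libraries. At the edge of the list, ENSRNOT00000089127 (294 bases) stood at 4.45, 2.33, 1.69, 0.289 and 0 TPM in vehicle hepatocytes at 9 h, so that 2 of the 5 libraries lay well under the value that ranked it.

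The differences in level between the cell types were tested in vehicle cultures at 24 h, which the ranking did not use. A transcript was called when its adjusted p (edgeR's quasi-likelihood test on all transcripts, Benjamini-Hochberg adjustment) was at most 0.05 and its natural-log fold change at least 0.41 in size, which is 1.51-fold. In hepatocytes 29 members were called higher and 49 lower, which was 54.5% of the members tested, and 42.7% of all transcripts tested were called. Without MS-183 the counts were 45 higher and 64 lower, 74.7% of the members tested, where 62.3% of all transcripts were called. Among the 40 transcripts over 2-fold higher in hepatocytes at 9 h, 25 were again called higher there and 1 lower, or 31 and 1 without MS-183. Among the 47 over 2-fold higher in renal cells, 37 were again called higher in renal cells and 1 in hepatocytes, or 44 and 1 without MS-183. Of the 63 within 2-fold, 3 were called higher and 11 lower in hepatocytes, or 13 and 19 without MS-183. The imbalance of a transcript at 9 h was thus mostly found again in separate libraries at 24 h.

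In hepatocytes without the agent, more of the shared transcripts were called lower than higher at 24 h against 9 h. Their summed level was 2892 ± 224 TPM at 24 h without MS-183 (2632 to 3111, n = 4), and 2417 ± 1081 TPM with it, against 7037 ± 268 TPM at 9 h. Without MS-183, all but 17 of the 150 transcripts had a lower mean at 24 h, with a median ratio of 0.538. By edgeR 53 members were called lower and 7 higher, 42% of those tested, where 19.9% of all transcripts were called, 11.6% lower and 8.26% higher. Without MS-183 these counts were 75 lower and 12 higher, 60.8% of those tested, where 35.5% of all transcripts were called. With any other single library left out, 42 to 45 were called lower and 3 or 4 higher, so the small higher count rests on which libraries are kept. The members called, in either direction, were then 31.7% to 34.3% of those tested, against 13.3% to 16.1% of all transcripts. In place of the 60 members called, 30 were called with no filter beyond 1 count and 31 by limma, 20% and 21.7% of those tested against 4.35% and 9.53% of all transcripts. The median log2 fold change was -0.62 over the members tested and 0.01 over all transcripts. The libraries of the 2 groups did not overlap for 73 members, 68 of them lower at 24 h, against 29.2% of all transcripts, 21% lower and 8.2% higher. Without MS-183 they did not overlap for 99 members, 83 of them lower, against 53.9% of all transcripts, 27.3% lower and 26.6% higher. The vehicle libraries at 9 h also ranked the members, so part of a fall against them can come from that choice, and this comparison is a description. Of the 40 members over 2-fold higher in hepatocytes, 22 were called lower at 24 h (29 without MS-183) and their median log2 fold change was -1.08, which was -1.03 without MS-183. The median was -0.36 for those within 2-fold (-0.37 without MS-183) and -0.32 for those over 2-fold higher in renal cells (-0.68 without MS-183), and the difference between these classes was not tested. The classes were set on the same vehicle libraries at 9 h, so a larger fall of those higher in hepatocytes is favoured by that choice.

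In renal cells without the agent, 88 of the 150 transcripts had a lower mean at 24 h than at 9 h, and the vehicle libraries at 9 h ranked the members here too. Their summed level was 1762 ± 13.7 TPM at 9 h and 1823 ± 41.3 TPM at 24 h (n = 5), and the median ratio of 24 h to 9 h was 0.944. By edgeR 18 members were called higher and 14 lower at 24 h, 22.2% of those tested, where 9.1% of all transcripts were called.

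Under either dose of thioacetamide-S-oxide at 24 h, more of the shared transcripts were called higher than lower in hepatocytes against vehicle at 24 h. The summed level was 5524 ± 354 TPM at the low dose (5102 to 6041, n = 5) and 5207 ± 367 TPM at the high dose (4576 to 5461), above all 5 vehicle libraries at 24 h and below all 5 at 9 h. At the low dose 55 members were called (edgeR), 49 higher and 6 lower, which was 39.3% of those tested. Of all transcripts 19.4% were called there, 11.6% higher and 7.89% lower. At the high dose 34 members were called, 28 higher and 6 lower, 24.1% of those tested, where 10.4% of all transcripts were called, 6.65% higher and 3.72% lower. These counts depended on the method. At the low dose 29 members were called with no filter beyond 1 count and 28 by limma, 19.5% and 20% of those tested against 4.14% and 9.87% of all transcripts. For the high dose these counts were 12 and 14, 8% and 9.93% against 1.84% and 5.02%, while DESeq2 called 58, 41.1% against 21.7%, and one fit of all groups 72, 49.7% against 27%. Over the members tested, the median log2 fold change was 0.52 and 0.37 for the low and the high dose, against -0.01 and 0.01 over all transcripts. The vehicle libraries are the same in both comparisons and in the comparison of 24 h with 9 h, so the 3 sets of counts are not separate observations.

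Library MS-183 weighed on these counts but not on their direction. Without it, 85 members were called at the low dose, 71 higher and 14 lower, and 66 at the high dose, 51 higher and 15 lower. These were 59.9% and 46.2% of the members tested, where 37.0% and 26.7% of all transcripts were called. With all libraries kept, those of the low dose did not overlap with vehicle for 67 members, 61 of them higher and 6 lower, where 28.8% of all transcripts did not overlap, 20.8% higher and 8.03% lower. Without MS-183 this was 94 members, 75 higher and 19 lower, against 56.0%, 28.2% higher and 27.8% lower. At the high dose the libraries did not overlap for 53 members, 49 higher and 4 lower, against 21.7% of all transcripts, 15.6% higher and 6.04% lower. Without MS-183 this was 77 members, 59 higher and 18 lower, against 42.3%, 21.4% higher and 20.9% lower. The high-dose count was also unstable to other libraries, falling to between 20 and 22 of the members when MS-181, MS-185, MS-116, MS-117, MS-118 or MS-119 was left out. These were 14.2% to 15.6% of the members tested, where 6.04% to 6.74% of all transcripts were called.

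**Figure D3:**
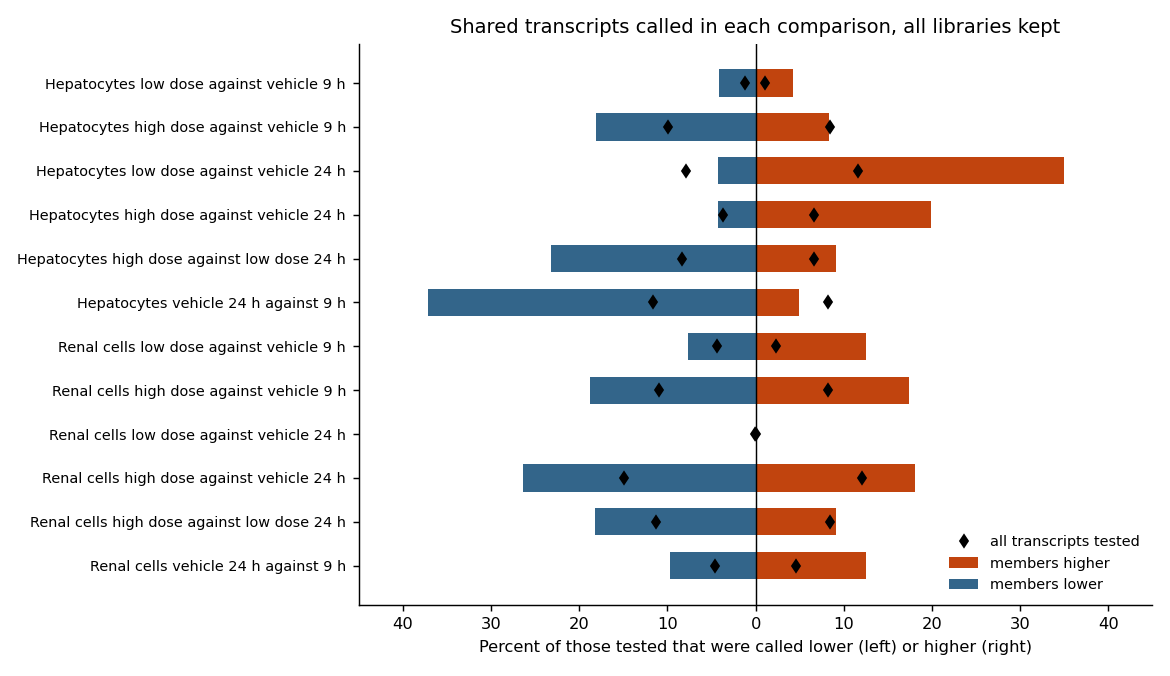
Percent of the members tested that were called higher (right bars) or lower (left bars) in each of 12 comparisons, with diamonds for the percent of all transcripts tested and all libraries kept. The bars reach furthest for hepatocytes at 24 h under the low dose (35% higher) and for hepatocyte vehicle cultures at 24 h against 9 h, and no member was called in low-dose renal cultures at 24 h.

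A comparison of the 2 doses at 24 h in hepatocytes needs neither vehicle group. Here more members were lower at the high dose, with 33 lower and 13 higher (edgeR), 32.4% of those tested, where 14.9% of all transcripts were called, 8.34% lower and 6.58% higher. The median log2 fold change was -0.26 over the members and 0.00 over all transcripts. The groups did not overlap for 57 members, 43 of them lower at the high dose, against 31.5% of all transcripts, 16.7% lower and 14.8% higher. Calls were made in each class of level, with 8 lower and 3 higher among members over 2-fold higher in hepatocytes, 12 and 5 among those within 2-fold and 13 and 5 among those over 2-fold higher in renal cells.

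At 9 h few members were called in hepatocytes at the low dose, and most of those called at the high dose were lower. At 0.025 mM 12 members were called (edgeR), 6 in each direction, 8.39% of those tested against 2.34% of all transcripts. At 0.125 mM 38 were called, 26 lower and 12 higher, 26.4% of those tested, where 18.4% of all transcripts were called, 9.95% lower and 8.48% higher. The vehicle libraries of both comparisons ranked the members, so that a fall is favoured by the choice. Between 9 and 24 h at the same dose, which uses no vehicle library, 17 members were called higher and 20 lower at the low dose, against 15.2% of all transcripts, and 16 higher and 32 lower at the high dose, against 15.7%. At the high dose, 5 members were called in the same direction at 9 and 24 h, 3.55% of those tested at both against 1.4% of all transcripts. Another 5 were called in opposite directions, all of them lower at 9 h and higher at 24 h, against 1.08% of all transcripts, and the choice of the members favours a fall at 9 h. Without MS-183 these counts were 12 and 12, 8.39% each, against 3.82% and 2.99% of all transcripts.

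Of the members called at the high dose at 24 h in hepatocytes, ENSRNOT00000012684 (303 bases, whole counts in every library) had the largest increase. It stood at 81.2, 75.2, 73.1, 65.5 and 38.5 TPM at the high dose and at 0.940, 1.28, 0, 1.01 and 2.34 TPM in vehicle cultures. All high-dose libraries lay far above all vehicle libraries. The log2 fold change was 5.34 (SE 0.37, edgeR adjusted p = 1.38e-05) and 5.34 without MS-183. A filter on low counts left this transcript untested in hepatocytes for the low dose against vehicle at 24 h and for vehicle at 24 h against 9 h. It entered the present test through its high-dose libraries, the group in which it is high, so the increase and its p-value are a description. At the low dose the mean was 3.42 ± 0.439 TPM, and the high dose exceeded the low dose by 4.34 on the log2 scale (edgeR adjusted p = 3.75e-07). In renal cells at 9 h the same transcript stood at 17.6 ± 2.56 TPM in vehicle and 4.92 ± 1.41 TPM at 0.125 mM. The vehicle level there was used to rank the members, so this is a description with no test. At 0.5 mM at 24 h its 12.5 ± 4.34 TPM did not differ beyond the threshold from 6.74 ± 3.20 TPM (edgeR adjusted p = 0.102).

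With all libraries kept, ENSRNOT00000008888 (6941 bases) was the 1 member called lower in high-dose hepatocytes at 24 h whose libraries did not overlap with vehicle, and another of the 6 called lower had a larger decrease. Its place rests on MS-183, since without that library 13 members met both criteria and it was the fifth of them by size of the decrease. Vehicle cultures held 4.41, 6.02, 8.26, 5.08 and 4.75 TPM, the highest in MS-183, and high-dose cultures held 2.12, 1.80, 1.98, 2.13 and 1.50 TPM. The groups did not overlap, and the log2 fold change was -2.17 (SE 0.44, edgeR adjusted p = 0.0101), or -1.60 without MS-183 (edgeR adjusted p = 2.06e-07). Vehicle hepatocytes at 9 h held 2.15 ± 0.313 TPM, close to the level at the high dose at 24 h, so the vehicle cultures at 24 h were the group that stood apart. Renal vehicle cultures held 13.4 ± 0.928 TPM at 9 h, a level used to rank the members, and 7.99 ± 0.771 TPM at 24 h, given as a description.

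**Figure D4:**
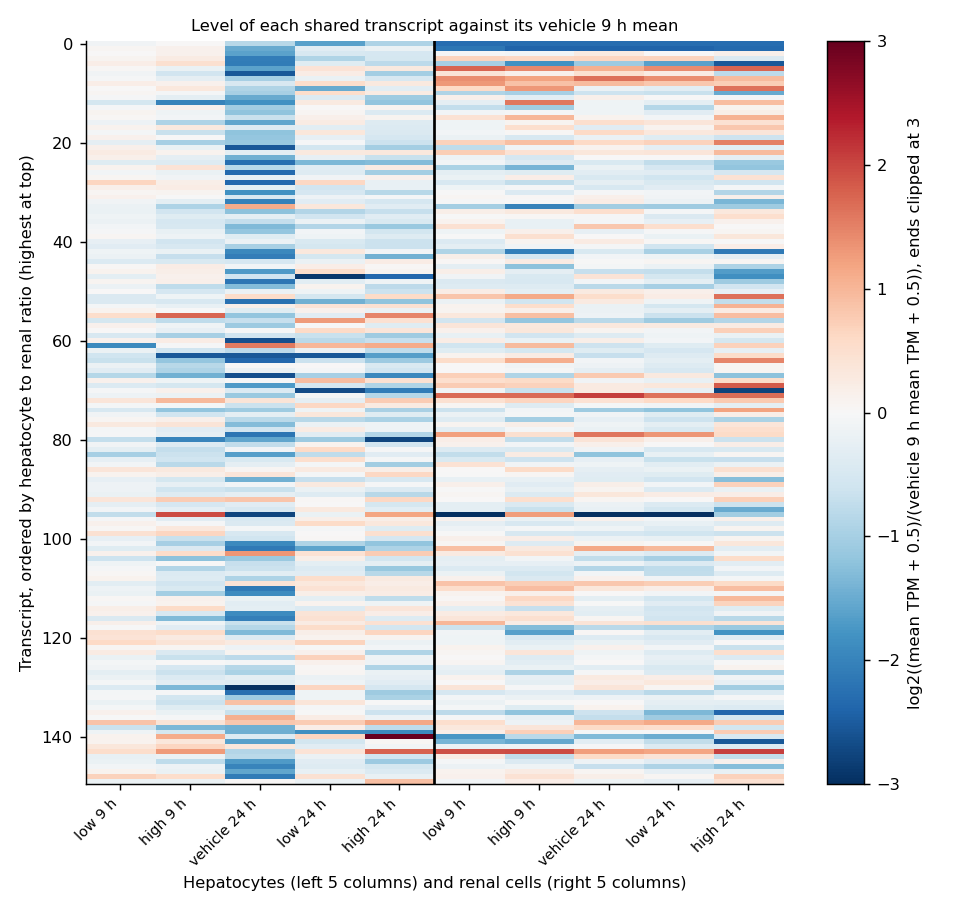
Each of the 150 transcripts as a row, ordered by its ratio of hepatocyte to renal level, coloured by log2 of its mean TPM plus 0.5 over its vehicle 9 h mean plus 0.5, in the other 5 hepatocyte conditions (left) and the other 5 renal conditions (right), with MS-183 left out. The vehicle 24 h column of the hepatocytes is the bluest (all but 17 of the 150 means lower), and the top 2 rows are blue in all renal columns.

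In renal cells the summed level of the shared transcripts hardly moved, while many single transcripts did. The means of the conditions lay between 1762 and 1852 TPM, apart from the low dose at 24 h with 1636 ± 414 TPM, or 1820 ± 42.8 TPM without MS-145. At the high dose at 24 h, 64 members were called, 38 lower and 26 higher (edgeR), 44.4% of those tested, where 26.9% of all transcripts were called. The groups did not overlap for 75 members, 44 of them lower, against 41.7% of all transcripts, 21% lower and 20.7% higher. The median log2 fold change was -0.14 over the members and 0.02 over all transcripts. The calls were spread over the classes of level, with 10 lower and 8 higher among members over 2-fold higher in hepatocytes, 17 and 11 among those within 2-fold and 11 and 7 among those over 2-fold higher in renal cells.

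Low-dose renal cultures had called members at 9 h and none at 24 h, and this difference in time was not tested. At 9 h 29 members were called, 18 higher and 11 lower (edgeR), 20.1% of those tested. Of all transcripts 6.69% were called, 2.28% higher and 4.41% lower. The vehicle libraries of this comparison at 9 h ranked the members, so the count at 9 h uses values of the rule. At 24 h 0 members were called by edgeR, where 0.0622% of all transcripts were called, and 7 members had an unadjusted p below 0.05, 4.86% of those tested against 6.33% of all transcripts. DESeq2 called 1 member there and limma 0. Without MS-145 edgeR again called 0, where 0.295% of all transcripts were called, and 21 members had an unadjusted p below 0.05, 14.6% against 11% of all transcripts. Neither difference in share was tested. Between the doses at 24 h, 26 members were called lower and 13 higher under the high dose, 27.3% of those tested, against 19.7% of all transcripts. Without MS-145 the counts were 34 and 25, 41% of those tested, against 23.2%.

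At the high dose at 9 h, 52 members were called in renal cells, 27 lower and 25 higher (edgeR), 36.1% of those tested, where 19.1% of all transcripts were called. The vehicle libraries of that comparison ranked the members. At both 9 and 24 h 16 members were higher and 16 lower, 11.1% of those tested at both in each direction, where 4.64% of all transcripts were higher and 6.48% lower at both times. A further 2 were higher at 9 h and lower at 24 h, against 0.322% of all transcripts. The comparisons at 9 and 24 h share no library. From 9 to 24 h, 17 members were called lower and 8 higher under the high dose, against 13.4% of all transcripts. Under the low dose 4 were called lower and 1 higher, against 2.46%, and 8 were called without MS-145, against 3.79%.

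The largest renal increase at the high dose at 24 h was that of ENSRNOT00000027847 (2967 bases), a transcript listed at 0 in every cardiomyocyte library. High-dose cultures held 20.4, 14.1, 22.1, 18.0 and 23.5 TPM and vehicle cultures 4.24, 3.04, 3.99, 4.29 and 2.74 TPM. The lowest high-dose library exceeded the highest vehicle library by a wide margin, and the log2 fold change was 2.35 (SE 0.14, edgeR adjusted p = 2.39e-07). At 9 h the high dose left it at 7.81 ± 0.538 TPM against 8.25 ± 0.307 TPM, and the low-dose cultures held 5.12 ± 0.771 TPM. The vehicle level at 9 h is the one that ranked this transcript, so both values are given as a description. In hepatocytes at 24 h it was higher than vehicle at the low dose, at 7.74 ± 0.396 against 3.11 ± 1.50 TPM (log2 fold change 0.86, edgeR adjusted p = 0.00665), or 0.80 without MS-183 (edgeR adjusted p = 6.28e-06), and at the high dose it held 4.07 ± 0.529 TPM (edgeR adjusted p = 0.997).

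The largest renal decrease, that of ENSRNOT00000091567 (1360 bases), was also found in hepatocytes. Renal cells at the high dose at 24 h held 0.721, 0.709, 0.254, 0.588 and 0.757 TPM and their vehicle cultures 7.38, 7.52, 9.56, 9.70 and 8.53 TPM, with a log2 fold change of -3.90 (SE 0.26, edgeR adjusted p = 5.14e-07). All 5 treated libraries were below 1 TPM and all 5 vehicle libraries above 7 TPM. The low dose at 24 h, at 5.82 ± 2.09 TPM, did not pass the threshold (edgeR adjusted p = 0.681). In hepatocytes at 24 h, both doses were below vehicle, at 0.739 ± 0.462 TPM (log2 fold change -2.98, edgeR adjusted p = 0.0209) and 1.34 ± 0.483 TPM (log2 fold change -2.06, edgeR adjusted p = 0.0110) against 4.36 ± 2.56 TPM in vehicle, or 5.44 ± 0.910 TPM without MS-183, which listed it at 0. At 9 h the hepatocyte doses held 7.27 ± 0.963 and 8.22 ± 1.31 TPM against 7.41 ± 2.07 TPM in vehicle.

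**Figure D5:**
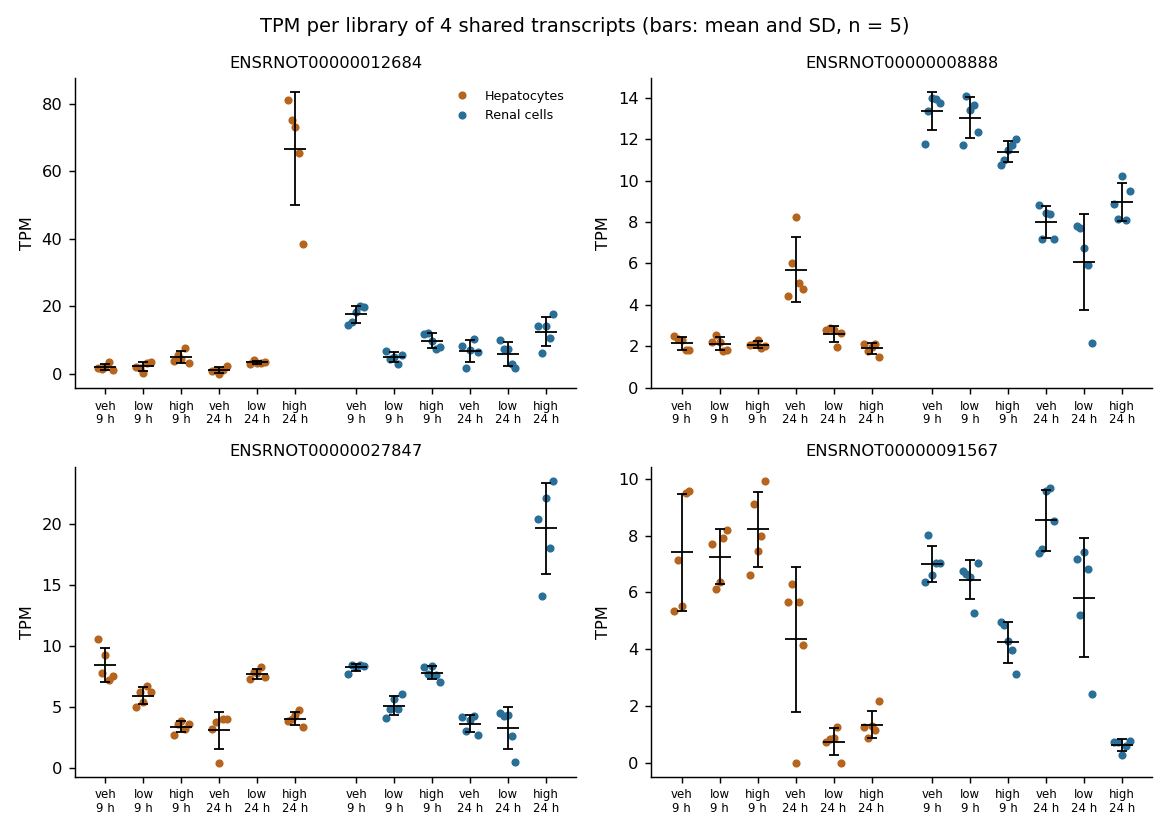
TPM in each library of the 4 called transcripts with the largest increase or decrease at the high dose at 24 h among those whose libraries did not overlap with vehicle, all libraries kept, ENSRNOT00000012684 and ENSRNOT00000008888 for hepatocytes (top) and ENSRNOT00000027847 and ENSRNOT00000091567 for renal cells (bottom), with the mean and SD of the 5 libraries. ENSRNOT00000012684 is highest in hepatocytes at the high dose at 24 h (66.7 ± 16.7 TPM) and is also present, at lower levels, in renal cells. ENSRNOT00000091567 is below 1.5 TPM on average in treated cells of both types at 24 h other than renal cells at the low dose.

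Under the high dose at 24 h, 3 of the members tested in both cell types were called higher in both and 3 lower in both, 2.16% each, where 0.524% and 0.352% of all transcripts were. A further 12 were higher in hepatocytes and lower in renal cells, 8.63% against 1.69% of all transcripts, and 1 was the reverse, 0.719% against 0.949%. Of the others, 15 were called in hepatocytes alone, 42 in renal cells alone and 63 in neither. Without MS-183 these counts were 5, 4, 20, 2, 34, 31 and 44. In opposite directions that makes 22 members, 15.7% against 6.61% of all transcripts, and in the same direction 9, 6.43% against 2.35%. At the high dose at 9 h, whose vehicle libraries ranked the members, 10 members were called in the same direction, 3 higher and 7 lower, and 7 in opposite directions. These were 7.09% and 4.96% of the members tested in both, against 3.09% and 1.88% of all transcripts. The high doses differ, being 0.125 mM in hepatocytes and 0.5 mM in renal cells, and a call in one cell type alone does not show that the responses differ.

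At the matched concentration of 0.125 mM, the difference between the responses was tested directly, as the hepatocyte fold change minus the renal one in a single model. At 9 h it passed the threshold for 57 members, 39% of those tested, 22 with a higher response in hepatocytes and 35 with a lower one (edgeR), where 19.2% of all transcripts passed. The vehicle libraries of both cell types there ranked the members. At 24 h, where none of the libraries did, it passed for 25 members, 17% of those tested, 21 with a higher response in hepatocytes and 4 with a lower one. Of all transcripts 7.23% passed, 4.11% higher and 3.12% lower. The hepatocyte libraries here are those of the comparison of the high dose with vehicle at 24 h, and no member was called for the renal low dose at 24 h. The 2 sets of counts are thus not separate observations. Without MS-183 the counts at 24 h were 39 and 10, against 17.4% of all transcripts, and without MS-145 they were 31 and 7, against 9.1%. With any other single library left out, 2 to 4 members had a lower response, so that count rests on few transcripts. With 1 such library left out, 12.9% to 16.3% of the members tested passed, against 5.14% to 7.5% of all transcripts. By DESeq2 49 members passed, 36 higher and 13 lower, 33.3% against 16.9% of all transcripts, by limma 13, 8.84% against 4.51%, and with all groups in one fit 65, 43.9% against 22.7%. The difference was 3.21 on the log2 scale at 9 h and 5.45 at 24 h for ENSRNOT00000012684 (edgeR adjusted p = 1.14e-05 at 24 h, with no test at 9 h, where vehicle levels ranked the members), -1.71 at 24 h for ENSRNOT00000008888 (edgeR adjusted p = 0.00987) and -1.62 at 24 h for ENSRNOT00000091567 (edgeR adjusted p = 0.0436). For ENSRNOT00000027847 it was 0.12 at 24 h (SE 0.43, edgeR adjusted p = 0.942). Without MS-183 the differences at 24 h were 5.44 for ENSRNOT00000012684, -1.31 for ENSRNOT00000008888 and -1.77 for ENSRNOT00000091567, each called, and 0.00 for ENSRNOT00000027847. Without MS-145 they were 5.35, -1.73, -1.71 and -0.10.

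Over the 8 comparisons of a dose with its vehicle, all but 3 of the 150 transcripts passed the filter on low counts in at least 1, and all but 13 in each of the 8. No call was made for 32 of those tested, 21.8% against 50.6% of all transcripts tested in at least 1. Calls were made in both cell types for 48, 32.7% against 10.7%, in hepatocytes alone for 32, 21.8% against 17.6%, and in renal cells alone for 35, 23.8% against 21.1%. With MS-183 and MS-145 left out, calls were made in both cell types for 63, 42.9% against 15.4%, in hepatocytes alone for 42, 28.6% against 26.7%, in renal cells alone for 20, 13.6% against 16.1%, and in neither for 22, 15% against 41.8%. The rule requires a level in both cell types, while a background transcript needs to be tested in 1 comparison only. The shares called in both cell types and in neither are therefore partly set by the choice of the members. Of these comparisons, 4 are at 9 h, where the vehicle libraries ranked the members. A filter of this kind keeps a transcript that is high in either group, so the counts above are of the members tested and not of the 150 as a whole.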

How the data were processed

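RNA was measured in 90 poly-A-enriched, stranded libraries, 5 for each of 18 conditions. The authors deposited 1 table per library with the estimated count and the TPM that Kallisto (0.42.4 per the labels, genome build Rnor_6.0) assigned to each target. A read that fits several transcripts is divided among them, so estimated counts need not be whole, and the deposited TPM corrects for length and depth and keeps no record of depth. Genomic intervals listed beside the 40071 transcripts were left out. The gene table used here (assembly GRCr8) holds no Ensembl identifiers and matched 0 transcripts, so the planned marker and pathway lists could not be applied and no sequence is shown.

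The members and lists were chosen with earlier results of these data known. Groups were taken from the sample titles. Levels are TPM, with no test. For tests, estimated counts were rounded and the libraries of the groups compared were fitted over all transcripts by the quasi-likelihood method of edgeR 4.0.16 in R 4.3.3, after filterByExpr and TMM scaling, with Benjamini-Hochberg adjustment over all transcripts tested. Calls required adjusted p-values up to 0.05 together with a fold change whose natural log was 0.41 or more in size. Each SE was derived from the log2 fold change and the F statistic. Of 19 comparisons, 4 (each dose at 24 h against 9 h) and the member tables without MS-183 or MS-145 were added after the data were seen, as was a tally of calls without both libraries. Named transcripts are the 5 highest ranks, the 2 highest and 2 lowest hepatocyte to renal ratios, both sides of the list's edge, and the called members with the largest rise and fall under each cell type's high dose at 24 h, provided that the libraries of the groups did not overlap.

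Alternatives were DESeq2 1.42.0, upper-quartile normalization, no filter beyond 1 count, limma 3.58.1 on log2(CPM + 0.5), all groups in one fit, other fold thresholds and each library left out. Between 140 and 147 of the 150 members passed the filter, depending on the comparison. The functions were tested on counts simulated from the hepatocyte high-dose and vehicle libraries at 24 h. With dispersion estimated from those libraries, 13.6% of 1.5-fold, 40.3% of 2-fold and 76.9% of 4-fold changes were called. At a fixed dispersion of 0.03 these were 49.3%, 97% and 100%. Many changes of about 2-fold or less can thus be missed in that comparison. The range of depths is given in the report, and a TPM of a few units in a short transcript can rest on few counts.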

Additional observations from a re-analysis of the deposited data

Results flagged for a closer look

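The summed TPM of the 150 transcripts had 1 library far from the other 4 in 3 conditions. In hepatocyte vehicle cultures at 24 h, MS-183 held 514 TPM against 2630 to 3110 TPM, beside its depth of 249303 transcript counts. Among the low-dose renal cultures at 24 h, MS-145 held 899 TPM against 1770 to 1880 TPM, and among the low-dose cardiomyocytes at 9 h, MS-159 held 46.3 TPM against 9.20 to 18.4 TPM. Of the 4 transcripts named for their change, ENSRNOT00000008888 stood at 1.95 TPM in MS-114 of the low-dose hepatocytes at 24 h, against 2.67 to 2.87 TPM. ENSRNOT00000027847 stood at 7.71 TPM in MS-121 of the vehicle renal cells at 9 h, against 8.30 to 8.44 TPM. A library stood apart in 5 of the 34 sets of 5 values checked with Dixon's ratio (limit 0.71), where chance gives about 1 in 20.

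The response to 0.125 mM differed between the cell types by a test of the difference itself (edgeR, Benjamini-Hochberg adjustment) for 57 members at 9 h, where 19.2% of all transcripts passed, and for 25 at 24 h, where 7.23% did. The vehicle libraries of both cell types at 9 h ranked the members, so the count at 9 h uses values of the rule. Among the named transcripts, the difference on the log2 scale was 3.21 at 9 h and 5.45 at 24 h for ENSRNOT00000012684. At 24 h it was -1.71 for ENSRNOT00000008888 and -1.62 for ENSRNOT00000091567. The response at 24 h was higher in hepatocytes in all 3 settings for most of the members that passed, with 21 of 25 in all libraries, 39 of 49 without MS-183 and 31 of 38 without MS-145. These settings share all other libraries. Their hepatocyte libraries are also those of the comparison of the high dose with vehicle at 24 h, so the counts are not separate observations.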

How the results depend on the processing

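No paired analysis was possible because the replicate numbers in the labels are not shared between groups. Over 1162 alternatives of 74 results, 972 kept the result on its side of the threshold or within 1.5 times the count. Most of these results are counts or sums, which have no direction that could change. Only the log2 fold changes of the transcripts named for their change could reverse, and 0 did. The share of members called was above the share of all transcripts called under the same setting in 324 of 343 alternatives of the counts, and the 19 others were all of the renal low dose at 24 h, against vehicle or against 9 h. The alternatives refit the same libraries and are not separate observations. Those with vehicle cultures at 9 h use the libraries that ranked the members. The members were chosen for their level and the background was not, and the part of level in these shares was not tested. Without a fold threshold, the members called rose from 12 to 30 (hepatocytes, low dose, 9 h), 38 to 80 (high dose, 9 h), 46 to 83 (high against low, 24 h), 37 to 86 and 48 to 84 (24 h against 9 h, low and high dose), and in renal cells from 29 to 64 (low dose, 9 h), 52 to 106 (high dose, 9 h), 32 to 65 (vehicle, 24 h against 9 h) and 25 to 60 (high dose, 24 h against 9 h). As shares of those tested these were, in the same order, 21%, 55.6%, 58.5%, 59.7%, 58.3%, 44.4%, 73.6%, 45.1% and 42%, against 17.5%, 49.7%, 40.5%, 49.5%, 40.7%, 29%, 59.3%, 33.1% and 41.5% of all transcripts, so the last was close to the background. With a fold change of at least 2 the same counts were 1, 15, 17, 12 and 17 in hepatocytes and 14, 24, 13 and 13 in renal cells, with 40 for the renal high dose at 24 h, 0 for the renal low dose at 24 h against 9 h and 28 for the difference between cell types at 9 h. Their shares were 0.699%, 10.4%, 12%, 8.33%, 11.8%, 9.72%, 16.7%, 9.03%, 9.09%, 27.8%, 0% and 19.2%, against 0.525%, 7.23%, 5.12%, 5.87%, 6.35%, 2.74%, 8.64%, 3.32%, 5.14%, 13.2%, 0.825% and 10.1% of all transcripts. For hepatocytes at 24 h against vehicle, no filter beyond 1 count gave 29 (low dose) and 12 (high dose) in place of 55 and 34, limma gave 28 and 14, and for the high dose DESeq2 gave 58 and all groups in one fit 72. For hepatocyte vehicle at 24 h against 9 h, no filter gave 30 and limma 31 in place of 60. The difference between cell types at 24 h was called for 49 members by DESeq2 (36 higher and 13 lower in hepatocytes), 13 by limma and 65 with all groups in one fit, in place of 25. One fit of all groups gave 7 for hepatocytes at the low dose at 9 h. For renal cells, DESeq2 and one fit of all groups each called 1 member at the low dose at 24 h in place of 0, and for the low dose at 24 h against 9 h one fit gave 13 and no filter 2 in place of 5. Leaving out 1 library gave 41 to 85 (hepatocytes, low dose, 24 h), 20 to 66 (high dose, 24 h), 38 to 59 (renal high against low, 24 h), 2 to 8 (renal low dose, 24 h against 9 h) and 19 to 49 (difference between cell types, 24 h). Their shares of those tested were 28.9% to 59.9%, 14.2% to 46.2%, 26.4% to 41%, 1.39% to 5.56% and 12.9% to 33.3%. Of all transcripts these were 12.6% to 37%, 6.04% to 26.7%, 16.7% to 23.2%, 1.59% to 3.79% and 5.14% to 17.4%. The upper ends are without MS-183 in hepatocytes and for the difference, and without MS-145 in renal cells. The renal low-dose total at 24 h against 9 h fell to 2 or 3 without MS-126, MS-127, MS-128, MS-129, MS-141 or MS-142, and the difference at 24 h was 38 without MS-145. A cardiomyocyte limit of 0.1 TPM kept 43 of the 150 transcripts in a list of 71, medians in place of means replaced 18 of them, vehicle cultures at 24 h without MS-183 in place of 9 h replaced 35, and leaving out 1 ranking library replaced 1 to 3. Apart from the construction of each alternative, the cause of these shifts was not tested. Depth limits the values of MS-183, in which 94 members are listed at 0.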
